A study of Mus musculus with 6 samples.

Results

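The 40 genes described here are a listed set of mouse cell division genes, given by name in a list that was drawn up with earlier results of these data known: 15 of DNA replication and S-phase, 23 of mitosis and 2 transcription regulators of the cell cycle. All 40 had a probe on the array, all 40 were well above background on all 6 arrays, and all 40 were among the 26677 genes and unnamed probes tested. Expression was measured in tooth germs of the lower first molar of newborn mice (postnatal day 0), strain 129/Sv, all labelled male, on 6 one-colour Agilent arrays with 1 sample each. By their labels 3 samples were wild type (WT1, WT2, WT3) and 3 were Perp-null (PN1, PN2, PN3), and these 2 groups differ in the labels only in Perp. The Perp protein sits in the cell membrane at desmosomes, which join epithelial cells, and its gene is activated by p53 and p63. The labels do not give the part of Perp that was deleted, or the number of animals behind each sample, and a p-value here reflects only the spread among these samples. Precision is limited by having 3 arrays in each labelled group.

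A dividing cell copies its DNA in S-phase and separates the copies in mitosis. The genes for replication are driven by E2F transcription factors and the mitotic genes by the MuvB complex with B-Myb and FoxM1, so the RNA of both groups is present mainly in cycling cells. In a tooth germ the progenitors of the dental epithelium and mesenchyme divide, and ameloblasts and odontoblasts, the cells that secrete enamel and dentin matrix, leave the cycle as they differentiate. In bulk RNA, fewer cycling cells and less of this RNA per cell cannot be told apart.

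The deposited data hold 2 versions of these 6 samples, and they disagree on which array is which. One is the scanner output of each sample, given here as log2 signal minus the 75th percentile of its array. The other is the authors' table of log2 values, whose scaling is not given in the sources used here. Over all gene probes, 5 of the 6 table columns matched a scanner file in their deviations from the mean over arrays (r from 0.938 to 0.992), but only 1 of these 5, WT1, matched the file of the same sample. Column WT2 matched the scanner file of WT3, column WT3 that of PN1, column PN1 that of WT2 and column PN3 that of PN2. Column PN2 matched no scanner file (r at most 0.708) and the scanner file of PN3 matched no column (r at most 0.418), so 7 distinct arrays are present. No file was reassigned by its values. Each value below is therefore named as scanner or table, and scanner WT2 and table WT2 are different arrays.

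The targeted gene shows the same conflict. The log2 scanner signals of Perp were 5.96, −5.06 and 5.91 for WT1 to WT3, then 5.87, −6.81 and 5.97 for PN1 to PN3, so it went against the label on 3 arrays (WT2, PN1 and PN3). In the table Perp was 17.01, 16.95 and 16.98 on WT1 to WT3, then 7.51, 8.24 and 7.26 on PN1 to PN3, and all 6 columns followed their labels. The log2 fold change, labelled Perp-null minus wild type, was −0.59 (SE 4.32) on the scanner signals (limma, Benjamini-Hochberg adjusted p = 1.0) and −9.31 (SE 0.24) in the table (limma, adjusted p = 6.18e-06). The male label was not borne out in either source. Ddx3y, a gene of the Y chromosome, was at −9.08, −5.97 and −8.93 on scanner WT2, PN1 and PN2 and at 0.61 to 0.81 on the other 3, and at 6.03, 5.94 and 6.67 in table WT3, PN1 and PN3 against 11.57 to 11.72 in the others. Signals of sex therefore also differed between arrays within each labelled group.

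**Figure D1:**
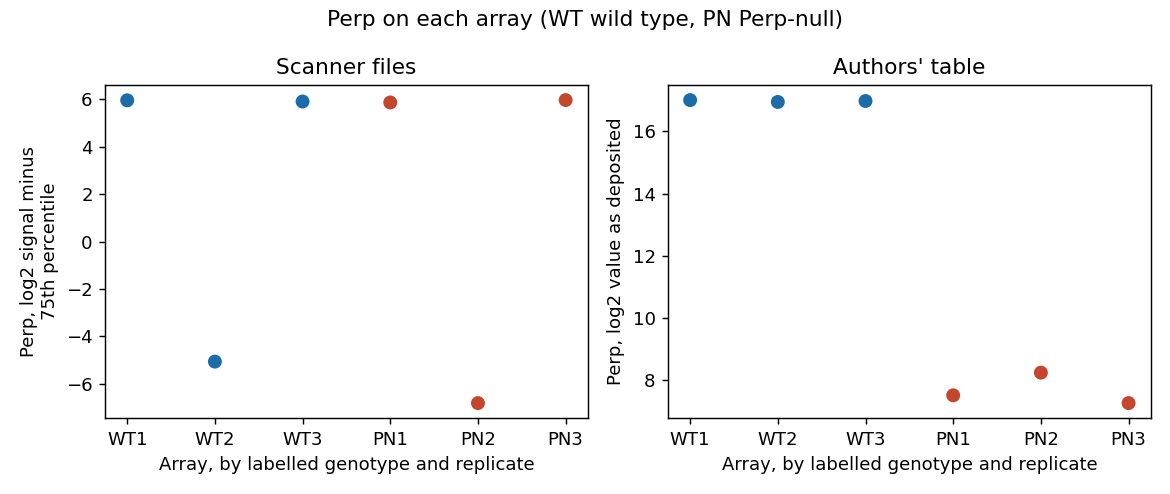
Log2 value of Perp on each of the 6 arrays, relative to the 75th percentile of the array for the scanner files (left) and as deposited for the authors' table (right), with wild-type labels in blue and Perp-null labels in red. On the scanner side WT2 lies low at −5.06 and PN1 and PN3 lie high at 5.87 and 5.97, while in the table the 3 Perp-null columns lie between 7.26 and 8.24, under the 3 wild-type columns.

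Markers of the labelled tissue were detected. All 7 measured ameloblast and enamel genes and all 9 odontoblast and bone matrix genes were well above background on all 6 arrays, as were all 8 of dental mesenchyme and all 8 of basal epithelium. So were 7 of 8 chondrocyte genes and 6 of 7 measured skeletal muscle genes, so detection alone cannot check the tissue label. The median deviations of the chondrocyte and muscle lists ranged 4.58-fold and 8.58-fold between scanner arrays, but 2.03-fold and 2.91-fold in the table. Of the 41174 gene probes, 72.8% (PN2) to 82.3% (PN3) were well above background on the scanner arrays, and negative control spots had median raw signals from 32 (PN2) to 127 (PN1). In the scanner files each labelled group has its own slide and scan, so these and the group cannot be told apart.

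The cell division genes moved up and down together between arrays, and the arrays with high values were found under both labels. On the scanner arrays 0 of 40 genes were above their own mean over the 6 arrays on WT1, WT2 and PN3, and 39, 38 and 40 of 40 were on WT3, PN1 and PN2. Of all features tested, 67.5%, 33.7% and 59.8% were above their own mean on WT1, WT2 and PN3, and 69.3%, 62.5% and 32.1% on WT3, PN1 and PN2. In the table, 0 of 40 were above their own mean on WT1 and PN1, against 39 on WT2, 34 on WT3, 40 on PN2 and 38 on PN3, with 46.2% to 54.6% of all features. Both low table columns carry the replicate number 1, 1 from each genotype. With the scanner arrays scaled to their median instead, WT2 was on the high side with 36 of 40 above and PN1 on the low side with 0. That scaling moved all features with them, since their median deviation became 0.47 on WT2 and −0.77 on PN1.

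The size of this swing depended on the scaling. The median deviation of the S-phase genes from their own means was −0.43, −0.49 and 0.54 log2 units for scanner WT1 to WT3, then 0.18, 0.55 and −0.45 for PN1 to PN3, a range of 1.04 or 2.05-fold. The mitotic genes had −0.73, −0.58, 0.54, 0.45, 0.66 and −0.39 in the same order of arrays, a range of 1.39 or 2.63-fold. With the arrays scaled to their median the ranges were 2.28 (4.85-fold) and 2.58 (6.0-fold), where the median of all features itself ranged over 1.33. Scaled to the 75th percentile, all features together had 0.18, −0.28, 0.16, 0.32, −0.27 and 0.06, so PN2, the array with the highest medians of the members, was low overall. In the table the range was 1.31 (2.48-fold) for S-phase genes and 1.47 (2.77-fold) for mitotic genes, against 0.05 for all features. The SD over the 6 arrays had a median of 0.61 over the 40 genes on the scanner arrays and 0.64 in the table, against 0.53 and 0.35 over all features. The median gene of the list stood at percentile 53.8 of all SDs on the scanner arrays and 78.7 in the table. All 40 were among the brighter features, split at the median scanner signal, and their SDs were not ranked among these alone.

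**Figure D2:**
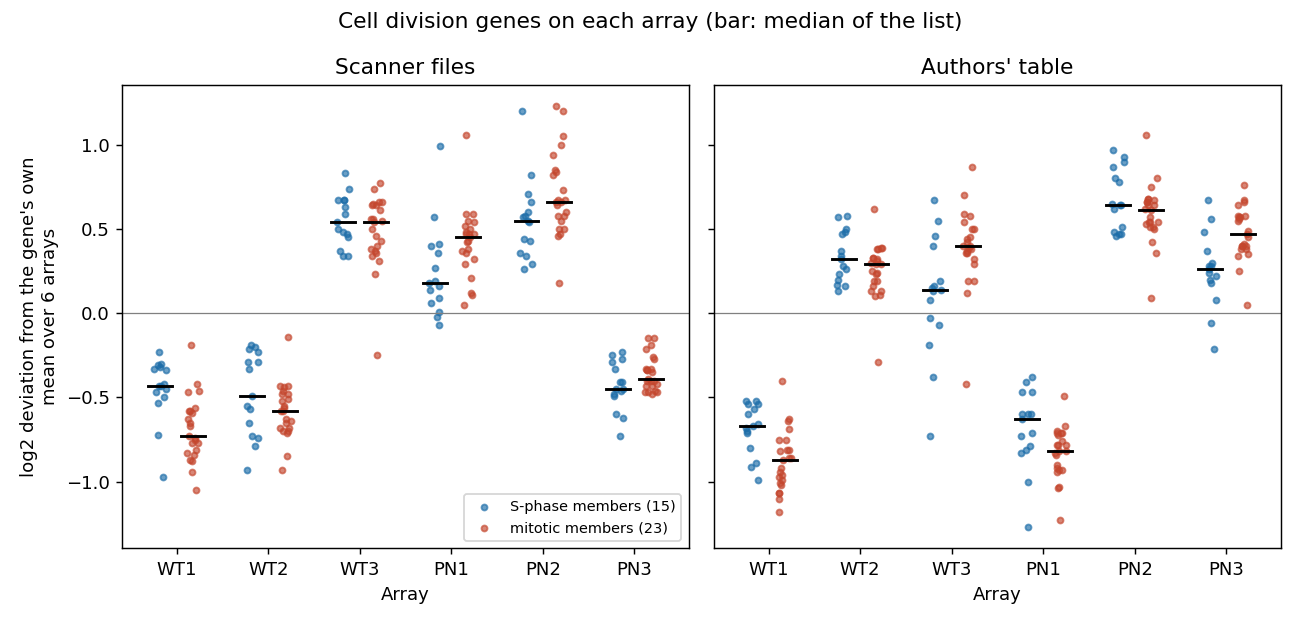
Deviation of each of 15 S-phase genes (blue) and 23 mitotic genes (red) from its own mean over 6 arrays, in log2 units, by array, with bars at the median of each list. In the scanner files (left) WT1, WT2 and PN3 lie under 0, and in the authors' table (right) WT1 and PN1 do, each time with arrays of both labels on both sides.

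S-phase and mitotic genes did not move by equal amounts on every array. On scanner WT1 the S-phase median was above the mitotic one by 0.30 log2 units, and on PN1 it was below by 0.27 (a difference of −0.27). The same array is column WT3 of the table, where the difference was −0.26, and only 10 of 15 S-phase genes but 22 of 23 mitotic genes were above their own mean. Table PN3 also had a difference of −0.21, and table WT1 and PN1 had 0.20 and 0.19. These are descriptions of single arrays, with no replicate of any of them.

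The promoters show what the members of each group share in sequence. RefSeq promoters (250 bases before to 50 after a transcript start, build GRCm38.p6) matched 33 of the 40 genes, 13 of S-phase and 19 of mitosis. The CHR element bound by MuvB was searched as TTTGAA or TTCGAA, and the E2F element as TTTCCCGC or TTTGGCGC or TTTCGCGC or TTCCCGCC, both on either strand, with overlapping matches allowed. A CHR element was found for 15 of 19 mitotic genes (78.9%) and 2 of 13 S-phase genes (15.4%), against 21.7% of all 27025 genes with a promoter. An E2F element was found for 7 of 13 S-phase genes (53.8%) and 1 of 19 mitotic genes (5.26%, Cdk1), against 4.0% of all. The box CCAAT was present with a CHR element in 14 of 19 mitotic promoters (73.7%) and 8.61% of all. A match is a run of letters and no shown binding site.

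Shown are the bases before the start of 3 S-phase genes with E2F matches and 3 mitotic genes with CHR matches, from members whose values are given below. Capitals mark CHR, E2F and CCAAT matches, which overlap in places (2 E2F matches in Mcm5, 2 at the first capitals of Mcm6, 2 CCAAT matches at the first capitals of Ube2c). The stretches are chr8:75109309-75109467 (plus strand), chr1:128359706-128359905 (minus), chr7:102441495-102441694 (plus), chr2:164769729-164769928 (plus), chr2:118598011-118598201 (plus) and chr7:135716451-135716579 (minus), each written 5′ to 3′ on the strand of the gene.
Mcm5: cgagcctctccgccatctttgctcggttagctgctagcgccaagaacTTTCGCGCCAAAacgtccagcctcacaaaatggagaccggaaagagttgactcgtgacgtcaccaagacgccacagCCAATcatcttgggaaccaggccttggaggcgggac
Mcm6: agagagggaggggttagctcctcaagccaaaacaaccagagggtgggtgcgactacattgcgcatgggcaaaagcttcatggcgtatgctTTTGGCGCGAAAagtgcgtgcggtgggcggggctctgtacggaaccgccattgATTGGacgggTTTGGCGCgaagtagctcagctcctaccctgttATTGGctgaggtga
Rrm1: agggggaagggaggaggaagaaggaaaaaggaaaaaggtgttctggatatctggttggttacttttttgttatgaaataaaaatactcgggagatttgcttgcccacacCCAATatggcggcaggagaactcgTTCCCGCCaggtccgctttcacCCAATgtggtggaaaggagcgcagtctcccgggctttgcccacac
Ube2c: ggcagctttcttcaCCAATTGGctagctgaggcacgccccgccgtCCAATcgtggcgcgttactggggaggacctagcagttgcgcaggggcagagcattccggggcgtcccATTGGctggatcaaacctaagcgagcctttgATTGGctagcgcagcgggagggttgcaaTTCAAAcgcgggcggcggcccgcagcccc
Bub1b: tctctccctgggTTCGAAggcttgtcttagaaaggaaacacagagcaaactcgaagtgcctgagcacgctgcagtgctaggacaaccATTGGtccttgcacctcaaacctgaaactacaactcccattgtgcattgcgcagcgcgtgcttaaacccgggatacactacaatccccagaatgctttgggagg
Mki67: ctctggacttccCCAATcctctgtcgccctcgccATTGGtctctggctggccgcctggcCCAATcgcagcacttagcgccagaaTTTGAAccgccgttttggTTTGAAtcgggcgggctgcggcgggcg

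Replication genes. Rrm2, the small subunit of the reductase that makes deoxyribonucleotides, had the widest range of the 15 S-phase genes. Its log2 scanner signal was 0.16, 0.33 and 1.75 on WT1 to WT3, then 1.31, 2.33 and 0.87 on PN1 to PN3, a 4.50-fold range. The labelled groups overlapped, with WT3 above PN1 and PN3. In the table Rrm2 was 11.18, 12.67 and 12.72 on WT1 to WT3, then 10.90, 13.04 and 12.54 on PN1 to PN3, low in both columns numbered 1. Its large partner Rrm1 had one of the 3 narrowest ranges, at 2.38, 2.41, 3.21, 2.76, 2.99 and 2.47 on scanner WT1 to PN3, 1.78-fold. Rrm2 and Rrm1 were nonetheless low and high on the same scanner arrays, with WT1, WT2 and PN3 under the other 3 for both.

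The helicase subunits Mcm5 and Mcm6, whose promoters are printed above with E2F matches, help unwind DNA at replication forks. Mcm5 gave scanner signals of 1.54, 1.61 and 3.09 on WT1 to WT3, then 2.42, 3.08 and 1.81 on PN1 to PN3. Mcm6 gave 3.45, 3.48 and 4.42, then 3.66, 4.13 and 2.96, with its lowest value on PN3. Mcm6 was the only member with a lower mean on the scanner arrays labelled Perp-null. Cdc6, which loads the helicase at origins, gave −2.05, −2.35 and −0.95, then −1.23, −1.08 and −2.08. In the table Cdc6 was 8.69, 10.06 and 8.85 on WT1 to WT3, then 9.17, 10.48 and 10.25 on PN1 to PN3. There WT3 was low for Cdc6 but not for Rrm2.

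Ccne2, a cyclin that starts S-phase with Cdk2, gave scanner signals of −1.99, −2.51 and −1.20 on WT1 to WT3, then −0.59, −0.99 and −2.18 on PN1 to PN3. E2f1, the transcription factor itself, gave −2.22, −2.65 and −1.57, then −1.34, −1.31 and −2.36. For both genes PN1 and PN2 were above all 3 wild-type arrays while PN3 lay among them. In the table E2f1 was 8.57, 9.41 and 8.90 on WT1 to WT3, then 8.90, 10.06 and 9.84 on PN1 to PN3, and Ccne2 was 8.88, 9.85 and 10.35, then 8.89, 10.15 and 9.98. With Rrm1, the narrowest ranges belonged to Pcna, the sliding clamp of DNA polymerase, at 4.08, 4.21, 4.74, 4.59, 4.65 and 4.11 (1.58-fold), and Tyms, thymidylate synthase, at 2.85, 2.79, 3.73, 3.69, 3.61 and 3.01 on scanner WT1 to PN3 (1.92-fold). The 6 S-phase genes not given by array, Mcm2, Mcm3, Mcm4, Mcm7, Cdt1 and Ccne1, ranged over 0.96 to 1.33 log2 units on the scanner arrays and 1.03 to 1.5 in the table.

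Mitotic genes. Nusap1, a spindle protein that binds microtubules, had the widest range of the 23 mitotic genes, 4.21-fold. It gave 0.30, 0.48 and 1.51 on scanner WT1 to WT3, then 1.46, 2.38 and 0.90 on PN1 to PN3. In the table it was 11.33, 12.44 and 12.84, then 10.91, 12.78 and 12.54, and so lowest in PN1. Ccna2, the cyclin of S-phase and early mitosis, gave 1.31, 1.98 and 1.87 on scanner WT1 to WT3, then 2.23, 3.34 and 1.97 on PN1 to PN3. Ccna2 alone among the mitotic genes was under its own mean on scanner WT3, and PN3 was within 0.01 of WT2. In the table Ccna2 was 12.38, 12.84 and 13.63, then 12.42, 13.93 and 13.60.

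Ube2c, the ubiquitin-conjugating enzyme that works with the anaphase-promoting complex, carries a CHR match and 5 CCAAT matches in the stretch above. It gave 1.86, 2.09 and 3.26 on scanner WT1 to WT3, then 3.35, 3.64 and 2.59 on PN1 to PN3. In the table it was 12.81, 14.20 and 14.49, then 12.87, 14.59 and 14.49, with WT1 and PN1 far under the other 4. Bub1b, a kinase-like protein of the spindle checkpoint, gave −0.48, −0.04 and 1.00, then 0.52, 1.45 and −0.07 on the scanner arrays. Aurkb, the kinase of the chromosomal passenger complex, gave −2.66, −2.03 and −0.84, then −1.56, −0.61 and −1.94. Kif2c, a kinesin that takes apart microtubules, gave −1.59, −2.33 and −1.17, then −0.34, −1.22 and −1.74, with its highest value on PN1 and not on WT3 or PN2.

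The 3 mitotic genes with the narrowest ranges followed the same arrays. Mki67, the Ki-67 protein that marks cycling cells, gave 3.01, 2.97 and 3.85 on scanner WT1 to WT3, then 3.69, 4.03 and 3.33 on PN1 to PN3, 2.09-fold. Cenpf of the kinetochore gave 0.82, 0.66 and 1.66, then 1.72, 1.76 and 1.1. Kif20a, a kinesin of cytokinesis, gave 1.53, 1.36 and 2.50, then 2.41, 2.40 and 1.47. For each of these 3 genes WT1, WT2 and PN3 were under the other 3 scanner arrays. The 14 mitotic genes not given by array ranged over 1.18 to 1.70 log2 units on the scanner arrays and 1.25 to 1.75 in the table. They are the cyclins Ccnb1 and Ccnb2 with their kinase Cdk1, the anaphase activator Cdc20, the passenger proteins Birc5 and Cdca8, the kinases Aurka, Bub1 and Plk1, the kinesin Kif11, the centromere proteins Cenpa and Cenpe, the spindle factor Tpx2 and the topoisomerase Top2a.

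Both regulators moved with the other members. Foxm1, the forkhead factor of mitotic genes, gave −0.12, −0.47 and 0.63 on scanner WT1 to WT3, then 0.60, 0.84 and −0.14 on PN1 to PN3, and 10.84, 11.61, 11.70, 10.62, 11.86 and 11.99 in the table. Mybl2, which encodes B-Myb, gave −0.77, −0.61 and 0.58, then 0.12, 0.97 and −0.29 on the scanner arrays, and 10.31, 11.56, 11.23, 10.27, 11.88 and 11.24 in the table. Both were lowest on WT1 or WT2 among the scanner arrays and in PN1 in the table. Over the 40 genes the highest scanner value was on PN2 for 24, on WT3 for 13 and on PN1 for 3, and the lowest on WT1 for 23, WT2 for 14 and PN3 for 3. In the table the highest value was in PN2 for 29 genes and the lowest in WT1 for 22 and PN1 for 18.

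The study asks what changes in the tooth without Perp. None of the 40 genes passed the comparison of the labelled groups in either source. On the scanner arrays these labels did not separate Perp, which was low on WT2 and high on PN1 and PN3. The scanner counts therefore cannot answer that question. On the scanner arrays 0 of 40 were called at an adjusted p under 0.05, where 0.0% of all features were (0 of 26677). At an unadjusted p under 0.05 there were 0 of 40, against 2.36% of all (630). In the table, 0 of 40 were called while 23.5% of all features were (6269), and 0 of 40 had an unadjusted p under 0.05 against 35.8% of all. All 40 members were among the brighter of the features, split at the median scanner signal, of which 1.83% were called in the table against 45.2% of the dimmer ones. The labelled groups overlapped for all 40 genes in both sources, while they did not overlap for 7.05% of all features on the scanner arrays and 43.2% in the table. That share was not taken over the brighter features alone.

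Which arrays were included changed the counts over all features more than the call on the members. With the replicate number as a block, 1 feature (Btbd9) was called on the scanner arrays. There 1 of 40 members had an unadjusted p under 0.05, against 673 of 26594 features. Without scanner WT3 15 of 40 members had an unadjusted p under 0.05, against 928 of 26676 features. Without PN3 there were 5 of 40, against 1332 of 26677 features, with 0 called in either. The table gave 1 called feature without PN2, 787 without PN3, 2662 without WT3 and 3188 without WT1, again with 0 members called. Without the 3 scanner arrays on which Perp opposed its label, PN2 was the single Perp-null array, set against WT1 and WT3 and assumed to vary as they do, and 5 of 40 members (12.5%) were called, against 45.4% of all features (12084 of 26634). These arrays were picked by their Perp signal, and with 1 array in the Perp-null arm the 5 calls have no replicate check of their own.

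The means nonetheless leaned one way. On the scanner arrays 39 of 40 had a higher mean under the Perp-null label, against 39.0% of all features, with a median log2 fold change of 0.18 over S-phase genes and 0.48 over mitotic genes and −0.08 over all features. Single arrays moved these scanner medians by more than 1.5 times. The S-phase median was 0.02 without WT1, 0.04 without WT2, 0.52 without WT3, 0.01 without PN2 and 0.43 without PN3, and the mitotic median was 0.26, 0.30, 0.87, 0.26 and 0.81 in the same order. The number of members with a higher mean was 33 without WT1, 35 without WT2 and 34 without PN2. In the table, 35 of 40 had a higher mean, against 51.3% of all, with medians of 0.11 and 0.16 against 0.01. These counts are of genes that move together between arrays and rest on few of them. Leaving out table WT1 left 5 of 40 with a higher mean, leaving out PN2 left 9 and leaving out PN3 left 17, and on the scanner arrays array weights left 3 of 40.

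Single genes show the size of the error. Ccna2 had the smallest unadjusted p of the 40 on the scanner arrays, with a mean of 1.72 ± 0.36 (SD, n = 3) under the wild-type label and 2.51 ± 0.73 (SD, n = 3) under the Perp-null label. Its log2 fold change was 0.79 (SE 0.38; limma, adjusted p = 1.0), and 0.37 (SE 0.43; limma, adjusted p = 0.62) in the table. Nusap1 gave 0.82 (SE 0.45) on the scanner arrays and −0.13 (SE 0.54) in the table, and Rrm2 gave 0.76 (SE 0.52) and −0.03 (SE 0.59), so their signs differed between sources. Ube2c gave 0.79 (SE 0.42) and 0.15 (SE 0.55). Ccne2 gave 0.65 (SE 0.52) and −0.02 (SE 0.46), but its second probe gave 1.15 in the table. E2f1 gave 0.48 (SE 0.44) and 0.64 (SE 0.38), and had the smallest unadjusted p of the 40 in the table (limma, adjusted p = 0.278). Foxm1 gave 0.42 (SE 0.36) and 0.11 (SE 0.39), and Mybl2 0.53 (SE 0.46) and 0.10 (SE 0.45). The standard errors had a median of 0.40 over the 40 genes on the scanner arrays and 0.43 in the table, against median log2 fold changes of 0.44 and 0.15.

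**Figure D3:**
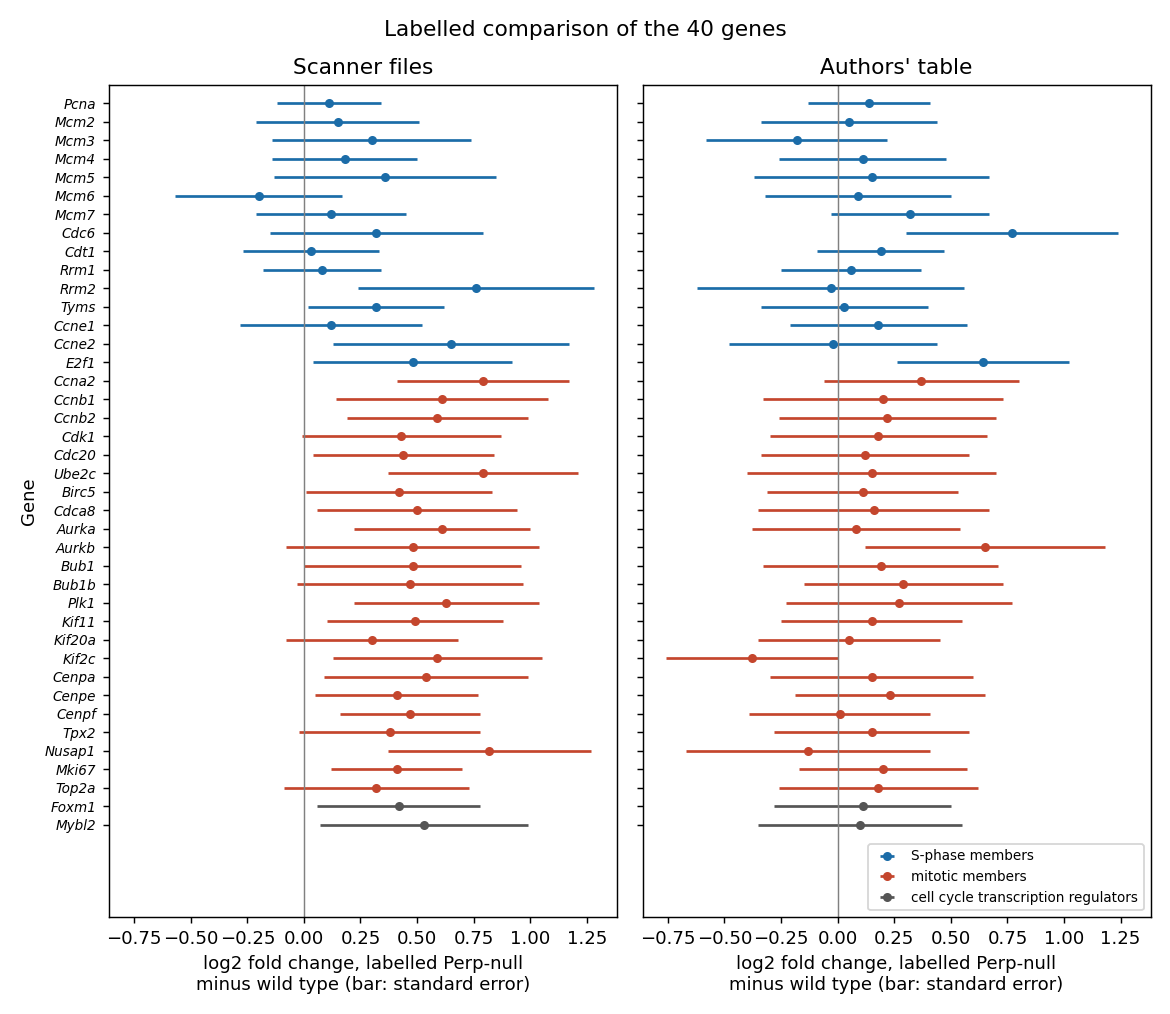
Log2 fold change of each of the 40 genes, labelled Perp-null minus wild type, with its standard error from limma, on the scanner arrays (left) and in the authors' table (right), with S-phase genes in blue, mitotic genes in red and regulators in grey. Most scanner values are above 0 with errors of about their own size, the table values are closer to 0, and none of the 40 was called in either.

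Several probes of a gene did not always tell the same story. Of the 40 genes 26 had 1 probe and 14 had several, with 16 probes besides those used. The fold change had the same sign as the probe used for 15 of these 16 on the scanner arrays and 13 in the table. The exception on the scanner arrays was Bub1, at 0.48 and −0.34, and its probes also differed by up to 1.87 on one table column. The probes of Kif11 gave 0.15 and −1.34 in the table. Those of Ccne2 gave −0.02 and 1.15 there, and differed by up to 1.71 on one column. Deviations stayed within 0.5 of the probe used on every array for 9 of the 16 on the scanner arrays and 5 in the table. The second probe of Cdk1 ranged over 3.77 log2 units on the scanner arrays against 1.47 for the probe used, and differed from it by up to 2.46 on one array. For the 26 genes with 1 probe no such check exists.

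Other genes of the same processes followed the same arrays. Of 30 further S-phase genes 29 were measured, and 0 were called on the scanner arrays. Their median deviation was −0.50, −0.43 and 0.46 on scanner WT1 to WT3, then 0.25, 0.53 and −0.36 on PN1 to PN3. Among the 4 with the smallest p on the scanner arrays were Cdc7, the kinase that fires origins, at a log2 fold change of 0.52 (SE 0.38), the primase Prim1 at 0.43 (SE 0.35) and the chromatin assembly factor Chaf1a at 0.40 (SE 0.36). In the table these gave −0.26, 0.23 and 0.06. Of 38 further genes of mitosis and cytokinesis 35 were measured and 0 were called in either source, with medians of −0.57, −0.55, 0.42, 0.46, 0.61 and −0.38 on the scanner arrays. The smallest p belonged to Ccnf, an F-box cyclin, at 0.72 (SE 0.39), Spc25 of the kinetochore at 0.66 (SE 0.39), the central spindle kinesin Kif23 at 0.56 (SE 0.36) and the phosphatase Cdc25c at 0.67 (SE 0.46). In the table they gave 0.26, 0.02, −0.15 and 0.28.

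The list of genes that govern G1 and cell cycle exit had a flat median, over genes that went both ways. Of 29 such genes 27 were measured, and the median deviation ranged over 0.31 log2 units on the scanner arrays and 0.29 in the table. The D-type cyclins Ccnd2 and Ccnd3 ranged over 0.38 and 0.59 on the scanner arrays, less than any of the 40 members. The following genes of the list are named after their values were seen. E2f7, an E2F factor that represses its targets, went with the members, at −0.79, −0.31 and 0.67 on scanner WT1 to WT3, then 0.46, 1.33 and −0.14 on PN1 to PN3, and so did E2f2. The inhibitor Cdkn2d also did, at 0.28, 0.33 and 0.76, then 1.23, 1.01 and 0.34. Some other genes that restrain the cycle, but not all, ran opposite to the members. Cdkn1a, the inhibitor p21 and a target of p53, gave 4.34, 4.34 and 3.65 on scanner WT1 to WT3, then 3.24, 3.39 and 4.24 on PN1 to PN3, and 15.19, 14.60, 14.24, 15.15, 14.03 and 14.04 in the table. Rb1, the retinoblastoma protein that holds back E2F, gave 3.61, 3.83 and 2.89, then 2.56, 2.58 and 3.57, and 14.65, 13.80, 13.88, 14.66, 13.51 and 13.67 in the table. Both were highest on the arrays where the members were lowest: WT1, WT2 and PN3 of the scanner files, and WT1 and PN1 of the table. The antiproliferative gene Btg1 did the same at smaller size, ranging over 0.81 on the scanner arrays and 0.82 in the table, as did the cyclin Ccng1, over 0.70 and 0.47. Cdkn1b, the inhibitor p27, varied less, over 0.46 on the scanner arrays and 0.57 in the table. Further inhibitors did not run opposite. Cdkn2c gave −0.08, 0.27 and 0.44 on scanner WT1 to WT3, then −0.07, 0.70 and −0.03 on PN1 to PN3. In the table Cdkn2c and Cdkn2b were lowest in WT1 and PN1, as the members were. Cdkn1c was low on scanner PN1 and PN2, at 2.92 and 3.44, but highest on WT3, at 4.25.

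None of the G1 genes was called on the scanner arrays. Gas1, a growth arrest protein, gave −0.73 (SE 0.30) and Cdkn1c, the inhibitor p57, −0.69 (SE 0.29), both with an unadjusted p under 0.05 (0.0456 and 0.0483, limma) and an adjusted p of 1.0, and in the table they gave 0.17 and −0.15. Cdkn1a gave −0.49 (SE 0.31) and Rb1 −0.54 (SE 0.35) on the scanner arrays, and −0.27 and −0.16 in the table. Cdkn1b, Ccnd2 and Ccnd3 lay between −0.07 and −0.02 on the scanner arrays and gave 0.19, 0.08 and −0.03 in the table. In the table, 3 of the 91 other cell division genes measured (3.3%) were called, all higher, against 23.5% of all features, and are named after their values were seen. Without table PN2 or with the replicate block 0 were called, and 1 without PN3. Orc1 of the origin recognition complex gave 1.42 (SE 0.42; limma, adjusted p = 0.044), E2f4 1.33 (SE 0.23; adjusted p = 0.0216) and Cdk2 1.24 (SE 0.24; adjusted p = 0.0216). On the scanner arrays they gave 0.50, −0.31 and −0.01, and the mean wild-type values were dim, at −3.23, −4.63 and −3.53 relative to the 75th percentile.

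**Figure D4:**
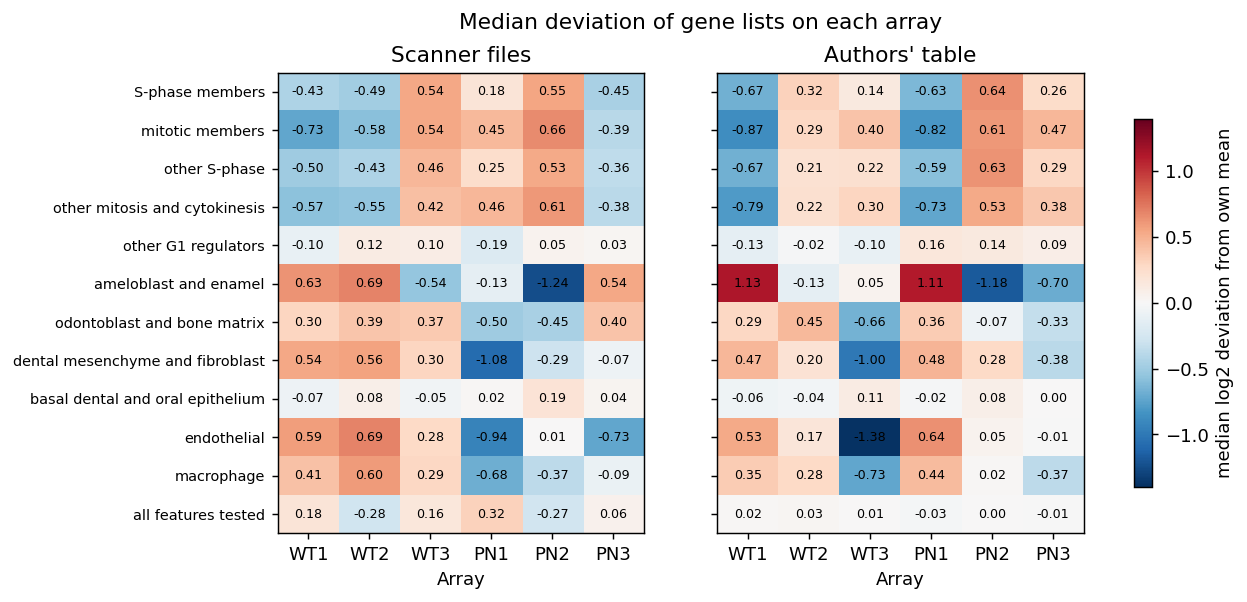
Median log2 deviation of the genes of each list from their own mean, by array, in the scanner files (left) and the authors' table (right), from blue (low) to red (high). The 4 rows of S-phase and mitotic genes share their low arrays, the median of the G1 regulators, whose genes go both ways, stays near 0, and the ameloblast and enamel row is high where the cell division rows are low.

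Markers of other cell types also differed between arrays. On the scanner arrays the median of the 7 measured ameloblast and enamel genes ran opposite to that of the cell division genes. The median deviations were 0.63, 0.69 and −0.54 on scanner WT1 to WT3, then −0.13, −1.24 and 0.54 on PN1 to PN3. Odam did not follow this, being lowest on WT1 in both sources, with deviations of −0.28 (scanner) and −0.31 (table). Klk4 was above its own mean on scanner PN1, at 0.24. In the table the medians were 1.13, −0.13, 0.05, 1.11, −1.18 and −0.70, so the low columns of the members, WT1 and PN1, were the high ones here. Mmp20, the protease of secretory enamel, gave 3.28, 3.28 and 0.91 on scanner WT1 to WT3, then 1.35, 0.86 and 2.96 on PN1 to PN3. The summed linear level of the enamel list, in units of the 75th percentile, was 136.4 to 245.2 under the wild-type label and 111.7 to 205.7 under the Perp-null label, and 1 of 7 had a higher mean there. None of its 7 genes was below background. The 9 odontoblast and bone matrix genes had median deviations of 0.30, 0.39 and 0.37 on scanner WT1 to WT3, then −0.50, −0.45 and 0.40 on PN1 to PN3. That list was thus high on scanner WT3, where the members were high too. In the table its medians were 0.29, 0.45, −0.66, 0.36, −0.07 and −0.33.

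Genes of dental mesenchyme, vessels and macrophages had lower means on the scanner arrays labelled Perp-null, with 0 of them called. All 8 mesenchymal genes had a lower mean under the Perp-null label, with summed levels of 82.2 to 104.3 under the wild-type label and 35.1 to 64.2 under the Perp-null label. The 8 endothelial genes summed to 16.2 to 23.5 and 7.05 to 14.2, and the 7 measured macrophage genes to 11.99 to 13.92 and 6.55 to 9.23. In the table, 2 of 8, 1 of 8 and 2 of 7 of these had a lower mean. The summed level of the basal epithelial genes stayed within 244.9 to 272.4 on all scanner arrays. That sum is carried mainly by the bright keratins Krt5, Krt14 and Krt17. Single genes of the list ranged from 1.19-fold (Krt17) to 2.16-fold (Epcam) between scanner arrays. The part of any of these cell types in the values of the cell division genes was not tested.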

How the data were processed

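The members and gene lists were chosen with earlier results of these data known. RNA was amplified and labelled with Cy3, per the labels' protocols. The deposited scanner files give spot intensity on a linear scale, background-subtracted per the file headers (Agilent Feature Extraction 10.5.1.1, and 10.3 per the submitters' processing notes; design build mm9). The deposited table gives log2 values, with column medians of 8.36 to 8.39 and their scaling, centring and direction beyond this not given in the sources used here; slopes of 0.84 to 1.30 against log2 raw signal show the direction and base.

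For the scanner files, values are log2 processed signal relative to the 75th percentile of that array, after 1417 control spots and outlier-flagged spots (4 to 68 per array) were left out. Probes well above background on at least 3 arrays were kept. Genes were named by RefSeq accession through GRCm38.p6 (24844 of 41174 probes, 60.3%, each naming 1 gene), and the probe of highest mean stood for its gene. The same probes were read from the table.

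The test between labelled groups was limma 3.58.1 (R 4.3.3, lmFit and eBayes with a trend). P-values were adjusted by Benjamini-Hochberg across 26677 features, and an adjusted p under 0.05 was called. The fit was tested on simulated data with independent noise, equal for all features and smaller than the median SD of these data. Genes that move together between arrays were not simulated. Values on every array are given for the 5 S-phase and 5 mitotic genes with the largest scanner range, the 3 with the smallest, the 3 with the smallest p, and the regulators. Of each other list the 4 with the smallest p are named, except 1 gene that is not reported here, with Cdkn1a, Cdkn1b, Cdkn1c, Ccnd2 and Ccnd3. For promoters, the 200 bases before a transcript start were cut at the earliest start of the gene. A promoter is printed where a member with values on every array has a CHR or E2F match in the bases left. The matches of Cdc6 and Kif2c fell outside these bases.

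Same-numbered scanner arrays correlated in their deviations from the group means at 0.843, 0.876 and 0.193, each over 0.1, the bound for treating numbers as pairs, and table columns at 0.408, 0.393 and −0.0226, which do not meet it. The labels state no pairing, and a scanner file and a table column of the same name are mostly different arrays. A correlation over the bound therefore does not show that same-numbered arrays are pairs. Alternatives were other scalings, background correction, filters, probe rules, eBayes settings, array weights, a replicate block and leaving out arrays.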

Additional observations from a re-analysis of the deposited data

How the results depend on the processing

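Called members stayed at 0 of 40 on the scanner arrays under every alternative except leaving out the 3 arrays whose Perp signal goes against the label, and in the table under every alternative run. Without those 3 arrays, 1 Perp-null array stood against 2 wild-type arrays and was assumed to vary like them. There 12084 of 26634 features, 5 of 40 members and 13 of the 91 other cell division genes measured were called. An unadjusted p under 0.05 was found for 9 of 40 members. Each of these shares of the cell division genes was lower than the share of all features. With 1 array in the Perp-null arm these counts have no replicate check, and no conclusion is drawn from them.

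For the scanner arrays 1 feature was called in place of 0 with normexp, with array weights or with the replicate block. Members with an unadjusted p under 0.05 numbered 1 with quantile normalization, 8 with normexp, 2 with array weights and 1 with the replicate block. Over all features, in the same order, there were 525, 607 and 2648 of 26677, and 673 of 26594. Leaving out one array at a time gave 0 to 15 such members, against 277 to 1332 such features. With array weights 3 members had a higher mean, with medians of −0.44 (S-phase) and −0.24 (mitotic). Median scaling gave ranges between arrays of 2.58 (mitotic) and 2.28 (S-phase), with WT2 and PN1 changing sides as described. Median scaling and normexp moved the median of all features to −0.17 and −0.23, from −0.08.

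The authors' table gave 6269 called features and 3 other cell division genes in place of 0. With the replicate block, added after seeing the data, it gave 1 called feature (Perp) and 0 other cell division genes called. There 9 members had an unadjusted p under 0.05, as had 10627 of 26677 features. Leaving out one column at a time gave 1 (without PN2) to 5899 called features, with 3188 without WT1, 2662 without WT3 and 787 without PN3. It gave 5 to 39 members with a higher mean, 17 without PN3 among them. Members with an unadjusted p under 0.05 numbered 0 to 5, against 7970 to 9461 features. Of the other cell division genes 0 to 4 were called, 0 without PN2 and 1 without PN3.

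Of the 23 genes followed through every alternative, signs turned under these settings, with adjusted p over 0.05 in limma. With array weights the log2 fold changes became −0.05 (Rrm2), −0.44 (Ccne2), −0.36 (E2f1), −0.31 (Foxm1), −0.17 (Mybl2), 0.71 (Perp), −0.28 (Cdc7), −0.28 (Prim1), −0.36 (Chaf1a), −0.01 (Ccnf), −0.15 (Spc25), −0.22 (Kif23), −0.23 (Cdc25c), 0.19 (Cdkn1a), 0.24 (Rb1), 0.19 (Cdkn1b), 0.02 (Ccnd2) and 0.01 (Ccnd3). In the table they were −0.03 (Rrm2), −0.02 (Ccne2), −0.13 (Nusap1), −0.26 (Cdc7), −0.15 (Kif23), 0.17 (Gas1), 0.19 (Cdkn1b) and 0.08 (Ccnd2). Ccnd2 and Ccnd3 turned to 0.02 and 0.06 with quantile normalization, to 0.04 and 0.06 with normexp and to 0.00 and 0.31 without the 3 arrays. Leaving out one array at a time, Perp ran from −4.25 to 3.65, Ccnd3 from −0.17 to 0.13, Ccnd2 from −0.12 to 0.03 and Cdkn1b from −0.19 to 0.03. The causes were not tested.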
